A study of Mus musculus with 45 samples.

Results

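The nuclear genes for the subunits of oxidative phosphorylation were followed across macrophages sorted from injured mouse muscle. They were all genes with a single symbol that begins with Nduf (the assembly factors named Ndufaf left out), Uqcr, Cox4 to Cox8 or Atp5, together with Sdha, Sdhb, Sdhc, Sdhd and Cycs. This gave 83 of the 19752 genes with a single symbol on the arrays: 34 of complex I, 4 of complex II, 8 of complex III, 19 of complex IV, 17 of complex V, and Cycs, which encodes cytochrome c. Ndufa4 and Ndufa4l2, named after complex I, were counted with complex IV. The rule used symbols and no measured difference. Tests were run on genes with a group mean at or above log2 7.57, the overall median of the arrays, in any group, and 81 of the 83 were among them. Cox7b2 (log2 4.97 to 5.51 over the 45 arrays) and Ndufa4l2 (6.55 to 7.31) stayed below it. All values are log2 intensities of Affymetrix Mouse Gene 1.0 ST arrays, and since probes differ in brightness no gene's level was set against another's. Many of these genes have near-identical processed copies elsewhere in the genome, whose transcripts the probes could also read; 6 probe sets that list a gene of the rule together with another symbol were left out.

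RNA came from Ly6g- CD11b+ F4-80+ macrophages of male C57Bl6 mice, split by surface MHC class II into MHCII+ and MHCII- cells, on day 0, 1, 4 or 7 of an injury made with cardiotoxin, a snake toxin that destroys muscle fibres. DTR+ mice carried Foxp3.DTR, a diphtheria toxin receptor driven by the promoter of Foxp3, the gene that marks regulatory T cells, so that diphtheria toxin (DT) removes those cells; DTR- mice did not carry it. The 45 arrays fell into 18 groups. Day 0 and day 4 held DTR- mice, with 2 arrays per subset. On day 1 both genotypes and both subsets had 2 arrays each, and all of its labels, DTR- included, name 24 h of DT. Day 7 came in 3 sets. In the 24 h set, 2 DTR+ and 4 DTR- arrays were of MHCII+ cells, and each genotype had 3 of MHCII- cells. In the 8 h set each genotype had 3 arrays of MHCII+ cells, and there were 3 DTR+ and 4 DTR- arrays of MHCII- cells. The remaining set, whose labels give no DT time and which is called untimed here, had MHCII+ cells only, with 2 arrays per genotype. The labels do not say from what moment 8 h and 24 h are counted. Mice were 12 weeks old in the 8 h set, 10 weeks old at day 0 and in the untimed set, and 8 weeks old elsewhere, and the gate also removed SiglecF+ cells in the 8 h, day 1 and day 4 sets. Time points and sets therefore differ in age, gate or DT as well as in time, and these cannot be told apart. The labels do not state that samples came from separate animals, so p-values measure the spread between these samples, which may be technical.

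The 8 macrophage markers were above log2 10.09 on all 45 arrays; Adgre1 (12.40 to 13.24) and Csf1r (12.35 to 13.35) varied less than Fcgr1 (10.09 to 12.61) and Itgam (10.71 to 12.64). The class II gene H2-Ab1 ran from 13.67 to 14.01 on the 24 MHCII+ arrays and from 7.81 to 12.45 on the 21 MHCII- arrays, so the titles held, although another field of the labels has MHCII- for most MHCII+ samples. The transgene has no probe, so the genotype labels were not checked. A few arrays stood apart. The mean of the macrophage markers was lowest on day 0 MHCII+ replicate 2 (11.94), which also had the highest level of the erythroid marker Alas2 (7.20), and highest on day 4 MHCII+ replicate 3 (12.48). The mean of the neutrophil markers was 9.30 and 7.11 on the day 0 MHCII- arrays and 7.98 on replicate 3 of the 24 h DTR- MHCII+ arrays, and at most 6.64 on every other array. T cell markers averaged 9.12 on replicate 1 of the 8 h DTR+ MHCII+ arrays and at most 7.41 on the others. Over the subunits, the median residual SD between arrays of a group was 0.08 at day 1, 0.09 in the untimed set, 0.15 at day 0, 0.18 at day 4, 0.19 in the 8 h set and 0.24 in the 24 h set.

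Oxidative phosphorylation takes place in the inner mitochondrial membrane. Complex I takes electrons from NADH and complex II from succinate; both pass them to ubiquinone, complex III hands them on to cytochrome c, and complex IV gives them to oxygen. Complexes I, III and IV pump protons across the membrane, and complex V, the ATP synthase, makes ATP as protons flow back. Most subunits are encoded in the nucleus and a few in mitochondrial DNA. In macrophages the balance between glycolysis and this pathway is known to shift with activation, the classically activated state leaning on glycolysis and the alternatively activated, repair-associated state on respiration. Several subunits of complex IV have a ubiquitous form and a form of heart and skeletal muscle, such as Cox6a1 and Cox6a2.

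Many of these genes share promoter elements, of which the site of nuclear respiratory factor 1 (NRF1) is the best known. RefSeq promoters (GRCm38.p6, 250 bases before to 50 after the transcription start) were matched for 68 of the 83 genes. The NRF1 motif (GCGC, then any base, then TGCGC, searched on both strands like the other motifs) was found in the promoters of 16 of these (23.5%) and of 5.19% of all 27025 genes in the table; none of the 21 matches overlapped a match of another motif searched. The ETS motif CCGGAAG, the core that GABP binds, was found in 17 (25.0%, against 9.93% of all genes). The YY1 motif AAGATGGCG was found in 7 (10.3%, against 1.64%), the ESRRA motif TCAAGGTCA in 2 (2.94%, against 0.466%), and the TATA letters TATAAA in 8 (11.8%, against 15.7%). The windows below show this shared element at 4 genes whose levels rose from day 0 to day 1, from complexes IV, I, V and II; capitals mark the NRF1 match, on whichever strand it was read.
Cox6a1 (chr5:115349081-115349150, minus strand): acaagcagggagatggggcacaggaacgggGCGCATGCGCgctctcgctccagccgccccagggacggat
Ndufa8 (chr2:36049339-36049408, minus strand): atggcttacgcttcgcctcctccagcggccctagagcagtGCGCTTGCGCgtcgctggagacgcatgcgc
Atp5g2 (chr15:102671050-102671119, minus strand): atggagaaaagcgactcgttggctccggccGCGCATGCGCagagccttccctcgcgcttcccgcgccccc
Sdha (chr13:74350299-74350368, minus strand): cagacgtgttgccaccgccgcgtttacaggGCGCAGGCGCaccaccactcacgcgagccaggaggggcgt
The matches begin 162 (Cox6a1), 30 (Ndufa8), 42 (Atp5g2) and 98 (Sdha) bases before the start. Among the genes that rose from day 0 to day 1 in MHCII+ cells, 8 of 27 with a promoter held the NRF1 motif (29.6%), and among the other subunits 8 of 41 did (19.5%). The ETS motif was divided the other way, with 5 of 27 (18.5%) and 12 of 41 (29.3%). A match is a description of the sequence and not of binding.

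Across the 18 groups, the difference between a subunit's highest and lowest group mean had a median of 0.82 on the log2 scale, from 0.25 for Cox7b to 1.74 for Ndufa4. Over all 11074 genes tested this median was 0.73. By complex, this median range was 0.81 for complex I, 0.73 for complex II, 0.92 for complex III, 0.91 for complex IV and 0.82 for complex V. The lowest group mean fell in day 0 MHCII+ cells for 33 of the 81 subunits, and the highest in the untimed DTR+ MHCII+ cells for 34. When each subunit was expressed as its deviation from its own mean over all arrays, the median deviation over the 81 subunits was -0.12 and -0.42 on the 2 day 0 MHCII+ arrays and 0.32 and 0.23 on the 2 untimed DTR+ arrays. The widest spreads within a group were in the 24 h DTR- MHCII+ cells (-0.12 to 0.30) and the 8 h MHCII- cells (DTR-, -0.13 to 0.22; DTR+, -0.16 to 0.20). As bulk arrays, these values cannot tell less RNA per cell from fewer cells that express a gene.

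**Figure D1:**
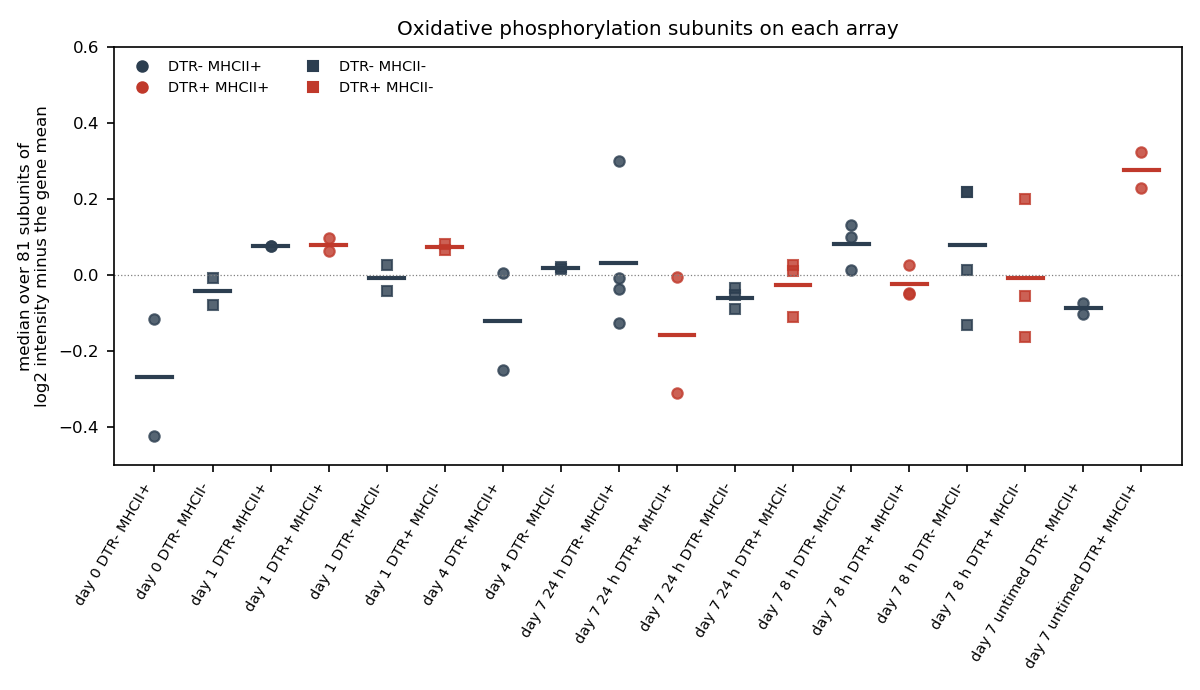
Median over the 81 subunits of log2 intensity minus each gene's mean over all 45 arrays (y axis), 1 point per array, by group (x axis); the bar is the group mean. The 2 untimed DTR+ MHCII+ arrays lie at 0.32 and 0.23 and the 2 day 0 MHCII+ arrays at -0.12 and -0.42.

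The first comparison asks how the subunits changed in the first day of injury. In MHCII+ cells of DTR- mice, 33 of the 81 subunits rose from day 0 to day 1 and 4 fell (limma, Benjamini-Hochberg adjusted p under 0.05, 2 arrays against 2); among all 11074 genes tested, 18.6% rose and 17.0% fell. The median log2 change over the subunits was 0.30, against -0.01 over all genes tested, and 45 of 81 had an unadjusted p under 0.05. Complex V moved most as a group, with 10 of 17 subunits higher and a median of 0.54. Complex I had 13 of 34 higher and 1 lower (median 0.30), complex II 1 of 4 (0.23), and complex III 3 of 8 (0.36). Complex IV was divided, with 6 of 17 higher, 3 lower and a median of -0.01. Cytochrome c itself did not pass on the probe set used (Cycs, 0.08 ± 0.18 SE, limma adjusted p = 0.76). A dimmer Cycs probe set, with a mean of log2 7.32, correlated with the one used at r = 0.053 and was not tested by itself. Which of them reads cytochrome c mRNA was not checked.

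Ndufa4, a small subunit of complex IV, had the largest rise of any subunit. It stood at log2 8.68 and 8.48 on the day 0 arrays and at 10.09 and 10.08 on the day 1 arrays, a change of 1.50 ± 0.32 (SE, limma adjusted p = 0.000472). Both day 1 arrays lay above both day 0 arrays, and the replicates within each day lay close together. Cox7a2, the ubiquitous form of subunit VIIa, went from 9.68 and 8.98 to 10.68 and 10.64, a change of 1.32 ± 0.36 (adjusted p = 0.00447). Here the day 0 replicates were further apart than the day 1 replicates, as they were for many subunits. Cox5a and Cox5b, nuclear-encoded subunits of complex IV, rose as well. Cox5a went from 9.50 and 9.27 to 10.45 and 10.40 (1.04 ± 0.22, adjusted p = 0.00035). Cox5b went from 11.41 and 11.05 to 12.10 and 12.16 (0.90 ± 0.14, adjusted p = 4.83e-06). Cox6a1, the ubiquitous form of subunit VIa, rose by 0.91 ± 0.24 (adjusted p = 0.00312), from 10.31 and 10.06 to 11.12 and 11.07.

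In complex V, Atp5e, the epsilon subunit of the rotor stalk, rose by 1.13 ± 0.26 (adjusted p = 0.00088), from 9.68 and 8.75 to 10.27 and 10.41. Atp5mpl, a small membrane subunit, rose by 1.10 ± 0.35 (adjusted p = 0.0139), from 9.20 and 8.42 to 9.79 and 10.02. Atp5a1, the alpha subunit, rose by 0.91 ± 0.20 (adjusted p = 0.000678), from 10.97 and 10.83 to 11.76 and 11.87. Its partner in the catalytic head, the beta subunit Atp5b, was nearly flat at 12.87 and 12.85 on day 0 and 12.94 and 12.98 on day 1, and its change of 0.10 did not pass (adjusted p = 0.655). Atp5g1, Atp5g2 and Atp5g3 encode the same mature c subunit of the rotor ring. Of them, Atp5g2 (0.69) and Atp5g3 (0.78) rose, and Atp5g1 was at -0.31 and did not pass (adjusted p = 0.266).

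In complex I the largest rise was that of Ndufa1, an accessory subunit of the membrane arm, at 1.20 ± 0.39 (adjusted p = 0.0155). Its values were 7.65 and 6.58 on day 0 and 8.41 and 8.22 on day 1, so the size of this change rests on how far apart the day 0 arrays lie. Ndufs6, an accessory subunit that holds a zinc ion, rose by 0.85 ± 0.18 (adjusted p = 0.00055), from 8.76 and 8.43 to 9.39 and 9.49. Ndufa3, a membrane-arm accessory subunit, had the smallest p of all subunits: it went from 10.18 and 10.07 to 10.91 and 10.94, a change of 0.80 ± 0.11 (adjusted p = 5.73e-07). Ndufb7, of the same arm, rose by 0.78 ± 0.13 (adjusted p = 2.91e-05). The core electron-transfer subunits Ndufs1 (0.72 ± 0.20, adjusted p = 0.00598) and Ndufv1 (0.60 ± 0.22, adjusted p = 0.0351) also rose.

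In complex II, Sdha, the flavoprotein that oxidises succinate, rose by 0.62 ± 0.17 (adjusted p = 0.00576), from 10.36 and 10.33 to 10.98 and 10.95; the iron-sulphur subunit Sdhb did not pass (0.17). In complex III, the small subunit Uqcrq rose by 1.01 ± 0.26 (adjusted p = 0.0029) and the Rieske iron-sulphur protein Uqcrfs1 by 0.47 ± 0.18 (adjusted p = 0.0355), and the core protein Uqcrc1 did not pass (0.10, adjusted p = 0.727).

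The 4 subunits that fell from day 0 to day 1 were Ndufb11 and 3 complex IV genes that are isoforms or relatives of the ubiquitous subunits. Ndufb11, of the complex I membrane arm, fell by 0.75 ± 0.21 on the log2 scale (adjusted p = 0.0064), from 11.56 and 11.59 to 10.83 and 10.81. Cox6a2, the heart and skeletal muscle form of subunit VIa, went from 8.79 and 8.81 to 8.10 and 8.22 (-0.64 ± 0.23, adjusted p = 0.0288). Cox7a2l, a relative of Cox7a2, went from 8.89 and 8.90 to 8.38 and 8.20 (-0.60 ± 0.16, limma adjusted p = 0.0041). Cox6b2, known as the testis form of subunit VIb, went from 7.87 and 7.89 to 7.29 and 7.33 (-0.57 ± 0.15, limma adjusted p = 0.00436). Its highest group mean (7.88) was that of these day 0 cells, and its day 1 values lay below the threshold for testing (log2 7.57). The filter took it in by its high level, so this call and those below only describe a gene near that threshold. The day 0 and day 1 arrays did not overlap for any of the 4. The mean of 16 skeletal muscle fibre markers was 8.12 and 7.69 on these day 0 arrays and 7.29 and 7.32 on these day 1 arrays, and 7 of the 14 markers tested fell, among them Myl1 (-2.60) and Ckm (-0.76). The mean of the 8 macrophage markers was 12.08 and 11.94 on the day 0 arrays and 12.30 and 12.23 on the day 1 arrays, and 2 of the 8 rose. Of the markers tested, 2 of 5 of muscle progenitors, 1 of 5 of fibroblasts, 1 of 3 of endothelium, 1 of 2 of T cells, 1 of 2 of adipocytes and none of 6 of neutrophils fell, and 1 of 2 of eosinophils rose. Alas2, not tested, was 6.84 and 7.20 on day 0 and 6.61 and 6.54 on day 1. The part of these cells in the changes of the subunits was not tested.

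The count rested heavily on replicate 2 of the day 0 MHCII+ cells, on which the subunits and the macrophage markers were lowest. Without it, 9 rose and 3 fell, and without replicate 1 of day 1, 20 rose and 3 fell. Called in every fit that left out 1 of the 4 arrays were 11 subunits: Atp5a1, Atp5g2, Cox5a, Cox5b, Ndufa3, Ndufa4, Ndufb7, Ndufs6 and Sdha, which rose, and Cox6b2 and Ndufb11, which fell.

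Other mitochondrial genes moved in MHCII+ cells over the same day. Of 36 assembly factors tested, 15 rose and none fell (median 0.37), with Ndufaf1 (1.22) and Ndufaf3 (1.07), which help to build complex I, and Coa3 (0.99), for complex IV, among those of smallest p. Of 16 genes of the tricarboxylic acid (TCA) cycle and pyruvate dehydrogenase, 6 rose and 1 fell (median 0.43), with Pdha1 at 1.21 and Idh3a at 1.09. Of 16 genes of mitochondrial biogenesis and transcription, 7 rose and 1 fell (median 0.18); Lrpprc, which stabilises mitochondrial mRNA, rose by 1.11 and Ssbp1, which binds mitochondrial DNA, by 1.16. Glycolysis had 5 of 15 higher (median 0.36), among them Pkm (1.10) and Pdk1 (1.15), and fatty acid oxidation 4 of 15 (median 0.29).

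In MHCII- cells the same interval gave fewer calls. From day 0 to day 1, 7 of the 81 subunits rose and none fell; among all genes tested 9.40% rose and 16.2% fell. The median change was 0.10, against -0.03 over all genes, and 17 subunits had an unadjusted p under 0.05. Ndufa3 went from 10.37 and 10.55 to 11.05 and 11.07 (0.60 ± 0.11, limma adjusted p = 4.2e-05). Ndufb7 went from 9.54 and 9.74 to 10.24 and 10.25 (0.61 ± 0.13, adjusted p = 0.000745). Cox5b went from 11.48 and 11.51 to 12.08 and 12.07 (0.58 ± 0.14, adjusted p = 0.00136). For all 3 genes, the day 1 arrays lay above the day 0 arrays. Ndufb6 (0.68), Atp5c1 (0.64), Atp5pb (0.63) and Atp5g2 (0.42) were the others. The 33 that rose in MHCII+ cells, 40.7% of the 81, include all 7 (21.2% of the 33). The count was 3 and 4 without replicates 1 and 2 of day 1, 4 without replicate 1 of day 0, which had the higher neutrophil markers, and 5 without its replicate 2. Cox5b, Ndufa3 and Ndufb7 were called in each of these fits. Over the same interval 5 of 6 neutrophil markers fell (median -1.94), as did 9 of 14 muscle fibre markers (-0.67) and 13 of 23 cell cycle genes (-0.66), and of 8 macrophage markers 2 rose and 4 fell; their part in the result was not tested.

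Ndufa4 did not pass in the day 0 comparison of the subsets, which is described below. It stood at 9.30 and 9.49 on the day 0 MHCII- arrays, above both MHCII+ arrays of that day (8.68 and 8.48), and reached 10.00 and 9.85 on day 1. Its rise of 0.53 in MHCII- cells did not pass (adjusted p = 0.247). The difference of the day 1 change between the subsets was tested directly. It passed for 1 of 81 subunits, Ndufc2, an accessory subunit of complex I, whose change was 0.75 ± 0.22 larger in MHCII+ cells (adjusted p = 0.0387); 4.66% of all genes passed, and 15 subunits had an unadjusted p under 0.05. Ndufc2 stood at 12.25 and 11.68 on day 0 MHCII+ arrays, 12.57 and 12.53 on day 0 MHCII- arrays, and 12.38 to 12.57 on the 4 day 1 DTR- arrays. This call was lost in 7 of the 8 fits that left out 1 array, all but the fit without replicate 1 of the day 0 MHCII+ cells, and also with arrays centred on their median and without the filter.

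**Figure D2:**
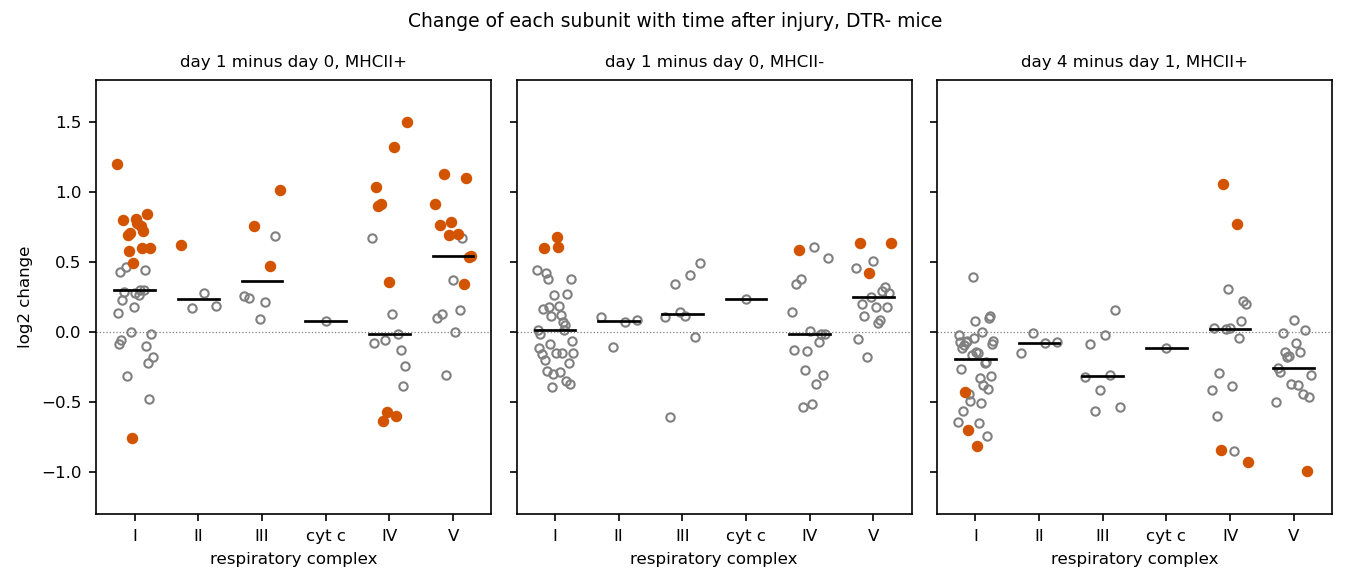
Log2 change of each of the 81 subunits (y axis) by respiratory complex (x axis) from day 0 to day 1 in MHCII+ and in MHCII- cells and from day 1 to day 4 in MHCII+ cells of DTR- mice; filled points passed limma's adjusted p under 0.05, open points did not, and the bar is the median. The filled points number 37, 7 and 8, and those of complex IV lie on both sides of 0 in both MHCII+ panels.

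From day 1 to day 4 in MHCII+ cells, 6 of 81 subunits fell and 2 rose; 7.61% of all genes tested fell and 7.77% rose. The median change was -0.17, against -0.01 over all genes, and 23 subunits had an unadjusted p under 0.05. This comparison shares the day 1 arrays with the first. The subunits that fell were Atp5mpl (-0.99), Ndufa4 (-0.93), Cox6a1 (-0.84), Ndufb6 (-0.81), Ndufa8 (-0.70) and Ndufa5 (-0.43). The 2 that rose were Cox6a2 and Cox7a2l. Cox6a2 stood at 9.43 and 9.01 on day 4, after 8.10 and 8.22 on day 1 (1.05 ± 0.23, adjusted p = 0.00136). Cox7a2l stood at 9.03 and 9.10, after 8.38 and 8.20 (0.77 ± 0.16, adjusted p = 0.000991). The day 4 MHCII+ replicates differed widely: Ndufa4 was 8.56 on replicate 2 and 9.75 on replicate 3, and Cox6a1 was 9.76 and 10.75. Without replicate 3 of day 4, 18 subunits were called, without replicate 2 of day 4, 1, and without replicate 1 or 2 of day 1, 2 and 3. Cox7a2l was the only subunit called in all 4 of these fits. Its calls rest on the brighter of its probe sets. The other correlated with it at r = 0.774 and was not tested by itself. On the same day 4 arrays, 7 of 14 muscle fibre markers were higher than on day 1 (median 0.56) and 6 of 15 glycolytic genes lower (median -0.45).

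In MHCII- cells, 6 subunits rose from day 1 to day 4 and none fell, against 16.9% of all genes that rose and 7.31% that fell; the median change was 0.04, against 0.05 over all genes. The share of subunits called was below the background. Cox6a2 (0.76 ± 0.23, adjusted p = 0.0129) went from 8.21 and 8.48 to 9.15 and 9.08, and Cox7a2l (0.71 ± 0.16, adjusted p = 0.00128) from 8.27 and 8.35 to 9.03 and 9.02. Both had risen in MHCII+ cells too. The other 4 were Uqcr11 (0.63), Uqcrc2 (0.38), Ndufa10 (0.32) and Cox6b1 (0.31). Leaving out any 1 array left 1 or 2 calls, with Cox7a2l, on the probe set used, in each fit. Muscle fibre markers were higher on day 4 here as well (6 of 14, median 0.53), and 18 of 23 cell cycle genes rose (median 1.21). No subunit differed between the subsets in its change from day 1 to day 4 (limma; 1.23% of all genes did, and 5 subunits had an unadjusted p under 0.05).

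Set directly against day 0, day 4 MHCII+ cells had 8 subunits higher and 1 lower, where 8.11% and 8.60% of all genes were called (median 0.16, all genes -0.01). Those higher were Atp5e (0.99), Uqcrh (0.85), Ndufa3 (0.71), Ndufb7 (0.63), Cox5b (0.61), Ndufc2 (0.60), Atp5g2 (0.52) and Cox6c (0.38). Ndufs5, of the complex I membrane arm, was lower (-0.84). In MHCII- cells 7 were higher and none lower, where 3.91% and 3.31% of all genes were called (median 0.06, all genes 0.02): Ndufa6 (0.70), Ndufb7 (0.69), Atp5pb (0.67), Ndufa3 (0.53), Atp5g2 (0.52), Uqcrc2 (0.49) and Cox5b (0.44). Ndufa3 and Ndufb7 were called in both subsets whichever array was left out. The MHCII+ count was 3 without replicate 2 of day 0 or replicate 3 of day 4, and the MHCII- count was 2 without replicate 2 of day 4 and 4 and 3 without replicates 1 and 2 of day 0; both comparisons share their day 0 arrays with those of day 1.

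On day 7 in the 24 h set, Ndufa3 and Ndufb7 were lower than on day 4 in MHCII- cells. Ndufa3 was 10.49, 10.49 and 10.69 there, after 11.01 and 10.97 on day 4 (-0.43 ± 0.10, adjusted p = 0.0162). Ndufb7 was 9.80, 9.74 and 10.01, after 10.38 and 10.28 (-0.48 ± 0.12, adjusted p = 0.041). These were the 2 subunits lower of 81, none were higher, and 1.17% of all genes were called. In MHCII+ cells Ndufa3 was lower (-0.33), and Ndufs5 (1.09) and Ndufa5 (0.44) were higher, 3 of 81 where 2.46% of all genes were called. The day 4 mean of Ndufa5, 7.45, lay below the threshold for testing. With the 8 h set in place of the 24 h set neither fall was called in MHCII- cells, where Ndufa3 was 10.78 to 11.06 and Ndufb7 9.87 to 10.43 on its 4 arrays, overlapping day 4; there 1 subunit was higher and none lower, and the median change turned from -0.10 to 0.04. In MHCII+ cells the 8 h set gave 6 higher and none lower, and the untimed set none higher and 3 lower. The shares of all genes called with these other sets were not counted. No call survived every fit without 1 array. In MHCII+ cells the count was 9 without replicate 4 and 1 without replicate 1 of the 24 h set, and 0 without replicate 2 of day 4; in MHCII- cells only the fit without replicate 3 of the 24 h set kept its 2 calls.

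Among the complex IV isoforms, Cox6a2 and Cox6a1 moved in opposite directions between day 0 and day 1. The muscle form Cox6a2 stood at 8.10 to 8.51 on the 8 day 1 arrays, at 8.78 to 8.99 on the 4 day 0 arrays, and at 8.76 to 10.01 on all arrays of days 4 and 7. The ubiquitous form Cox6a1 stood at 10.84 to 11.18 on the day 1 arrays and at 10.06 to 10.65 on the day 0 arrays. Over all 45 arrays Cox6a1 ran from 9.76, on a day 4 array, to 11.18. Its highest group mean, 11.11, was that of the untimed DTR+ MHCII+ cells. The other genes with a muscle form did not divide in this way from day 0 to day 1. Cox7a1, the muscle form of subunit VIIa, was at 8.40 to 8.53 on all day 1 arrays and did not pass from day 0 to day 1 in MHCII+ cells (0.13) or MHCII- cells (-0.52, adjusted p = 0.0624). Cox8b, the muscle form of subunit VIII, stood between 7.02 and 8.06 on every array, near the threshold for testing, and passed in none of the comparisons. Cox8a, its ubiquitous form, stayed between 12.00 and 12.60 on all 45 arrays, and Cox4i1 and Cox4i2, the common and the lung form of subunit IV, passed in no comparison of 2 groups. Cox4i1 ran from 9.42 to 11.02 and Cox4i2 from 7.32 to 7.98.

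**Figure D3:**
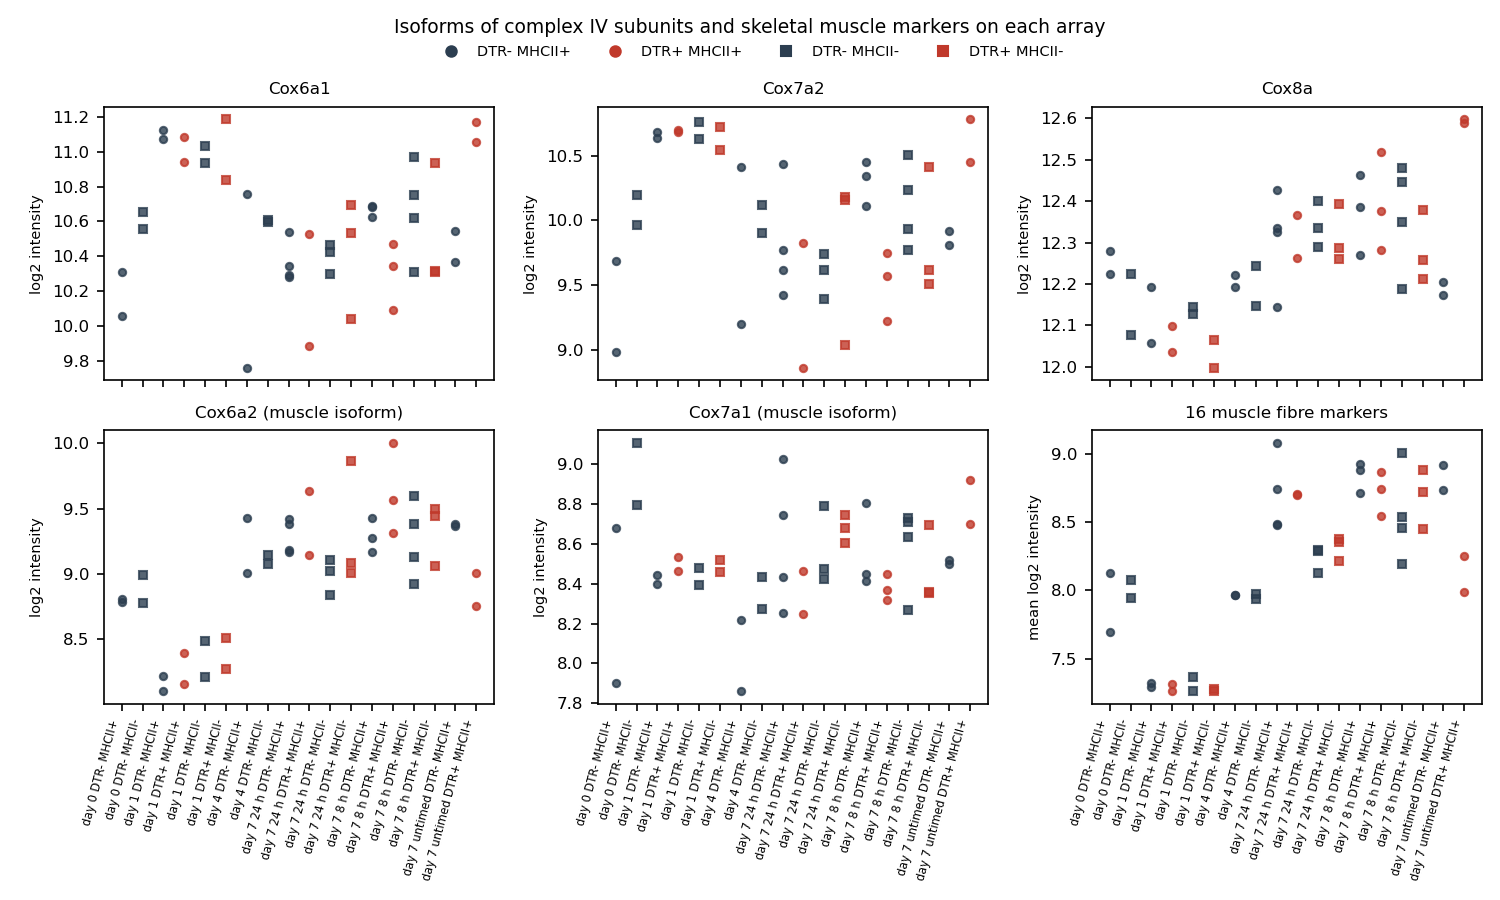
Log2 intensity (y axis) on each array, by group (x axis), of the ubiquitous complex IV forms Cox6a1, Cox7a2 and Cox8a, of the muscle forms Cox6a2 and Cox7a1, and of the mean of 16 skeletal muscle fibre markers. On the 8 day 1 arrays Cox6a2 lies at 8.10 to 8.51 and the muscle marker mean at 7.26 to 7.37, in both cases below every array of the other days.

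Before injury, the subsets differed in a few subunits. On day 0, 8 of 81 were lower and 1 higher in MHCII+ than in MHCII- cells; 10.6% of all genes were lower and 8.44% higher, and the median difference was -0.11, against -0.02 over all genes. The share called, 9 of 81, was below the 19.0% of all genes called in either direction. The lower ones were Atp5mpl (-0.99), Atp5e (-0.79), Ndufc1 (-0.67), Cox7a1 (-0.66), Ndufc2 (-0.58), Ndufs1 (-0.58), Cox6c (-0.37) and Ndufa3 (-0.33). Cox6b2 was higher in MHCII+ cells (7.87 and 7.89, against 7.31 and 7.41, 0.52 ± 0.15, limma adjusted p = 0.016). Both of its MHCII- values lay below the threshold for testing. None of the 9 was called in every fit without 1 array: no subunit was called without replicate 2 of the MHCII+ cells, 17 without replicate 1, 1 without replicate 2 of the MHCII- cells and 5 without replicate 1. Beside this, 5 of 6 neutrophil markers tested were lower in the MHCII+ cells (median -2.36), their mean being 6.30 and 6.35 there and 9.30 and 7.11 in MHCII- cells; their part in the differences was not tested.

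After injury, subset differences in DTR- mice were rare in limma's test. No subunit passed at day 1 (2.45% of all genes; 2 subunits with an unadjusted p under 0.05), at day 4 (2.12%; 2 subunits) or in the 24 h set (5.23%; 8 subunits). At day 4 the values leaned one way, with 73 of 81 below 0 and a median of -0.14, against -0.04 over all genes. All 34 complex I subunits were below 0 there, and replicate 2 of the MHCII+ cells was the low array. Without replicate 3 of the MHCII+ cells 1 subunit was called at day 4. In the 24 h set, 8 were called without replicate 4 and 1 without replicate 2 of the MHCII+ cells. In the 8 h set 1 subunit passed, where 2.21% of all genes did: Uqcr11, a small subunit of complex III, was lower in MHCII+ cells by 0.75 ± 0.18 on the log2 scale (adjusted p = 0.015). Its values were 10.36, 10.99 and 10.25 in MHCII+ and 11.40, 11.40, 11.55 and 10.76 in MHCII- cells, so the groups overlapped, and the call was lost without replicate 1 or 3 of either subset.

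DTR+ and DTR- cells were compared within each set. The labels name DT for the day 1, 24 h and 8 h sets and not for the untimed set, and whether regulatory T cells were lost was not measured on these arrays. At day 1 the subunits of DTR+ and DTR- cells lay close together. In MHCII+ cells no subunit passed and none had an unadjusted p under 0.05 (limma; 0% of all genes passed), the median difference was 0.00, and the 81 differences ran from -0.19 (Atp5j2) to 0.17 (Atp5h). In MHCII- cells none passed (0% of all genes; 4 subunits with an unadjusted p under 0.05), with differences from -0.16 (Ndufb11) to 0.43 (Ndufa6). Ndufa4, the subunit with the largest day 1 rise, was 9.88 and 10.18 in DTR+ and 10.09 and 10.08 in DTR- MHCII+ cells.

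In the 24 h set of day 7 no subunit passed in MHCII+ cells (0.0542% of all genes; 7 subunits with an unadjusted p under 0.05) or in MHCII- cells (0.00903%; 4 subunits). In MHCII+ cells the differences leaned down, with 16 of 81 above 0 and a median of -0.15, against 0.04 over all genes, and the smallest p was that of Atp5c1, the gamma subunit of complex V (-0.41 ± 0.17, adjusted p = 0.761). The 2 DTR+ arrays themselves differed: the median deviation of the subunits was -0.0033 on replicate 1 and -0.31 on replicate 5. In the 8 h set no subunit passed in MHCII+ cells (0.488%; 14 subunits with an unadjusted p under 0.05) or MHCII- cells (0.0181%; 1 subunit). The smallest p in 8 h MHCII+ cells was that of Atp5a1, at 10.61, 11.28 and 11.03 in DTR+ and 11.53, 11.50 and 11.64 in DTR- cells (-0.59 ± 0.17, adjusted p = 0.11). The groups did not overlap, yet the difference did not pass across all genes; the lowest value is that of the DTR+ array with the high T cell markers. Without replicate 3 of the DTR+ cells, 4 subunits were called there, 2 in each direction.

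The untimed set was the only day 7 set with subunits past the threshold between the genotypes. In DTR+ MHCII+ cells 15 of 81 subunits were higher than in DTR- cells and none lower (limma, 2 arrays against 2), where 5.32% of all genes were higher and 6.20% lower. The median difference was 0.35, against -0.01 over all genes, 77 of 81 subunits lay above 0, and 38 had an unadjusted p under 0.05. Calls in this fit fell in each of complexes I to V. They were 6 of 34 subunits of complex I (median 0.40), 1 of 4 of complex II (0.45), 2 of 8 of complex III (0.37), 3 of 17 of complex IV (0.30) and 3 of 17 of complex V (0.41). Outside complex IV, no call held in every fit without 1 array. On the probe set used, Cycs lay at 0.27 and did not pass (limma adjusted p = 0.436).

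The largest of these differences was that of Ndufb6, a membrane-arm subunit of complex I, at 11.56 and 11.18 in DTR+ and 10.32 and 10.55 in DTR- cells (0.94 ± 0.23, adjusted p = 0.0054). Ndufs3, a core subunit of the matrix arm (0.57, adjusted p = 0.0118), and Ndufs6 (0.57, adjusted p = 0.0365) were higher too, as were Ndufv3 (0.48), Ndufa3 (0.42) and Ndufb7 (0.41). In complex II, Sdhd, a membrane anchor, was 10.68 and 10.67 against 10.11 and 10.08 (0.58 ± 0.18, adjusted p = 0.0261). In complex III, Uqcr10 (0.76, adjusted p = 0.0394) and the Rieske protein Uqcrfs1, at 9.24 and 9.04 against 8.57 and 8.53 (0.59 ± 0.18, adjusted p = 0.0209), were higher.

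In complex IV, Cox5a was 10.96 and 10.72 in DTR+ and 10.00 and 10.03 in DTR- cells (0.83 ± 0.22, adjusted p = 0.00838), and Cox5b was 12.25 and 12.04 against 11.36 and 11.58 (0.68 ± 0.14, adjusted p = 0.000502). Cox8a differed by less but with a narrow spread, at 12.60 and 12.59 against 12.17 and 12.20 (0.40 ± 0.10, adjusted p = 0.00348). In complex V, Atp5g3 was 11.83 and 11.70 against 10.93 and 11.08 (0.76 ± 0.19, adjusted p = 0.00577), and the stalk subunits Atp5o (0.70, adjusted p = 0.022) and Atp5pb (0.68, adjusted p = 0.00368) were higher. The 4 subunits below 0 were the complex IV forms Cox6a2 (-0.49), Cox8b (-0.31), Cox8c (-0.14) and Cox6b2 (-0.10), and none of them passed. Other tissue forms of complex IV lay above 0, the muscle form Cox7a1 and the lung form Cox4i2. Cox4i2 had means of 7.82 in DTR+ and 7.51 in DTR- cells. Neither passed.

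Of the 15 subunits, 10 were also among the 33 that rose from day 0 to day 1 in MHCII+ cells (66.7% of the 15 and 30.3% of the 33). Of all 81 subunits, 40.7% rose on day 1 and 18.5% were higher in the untimed set. The overlap over all genes was not counted. The arrays of the 2 comparisons are separate. Only Cox5b and Cox8a were called in each of the 4 fits without 1 array. The count was 2 without replicate 1 of DTR+, 3 without replicate 1 and 6 without replicate 2 of DTR-, and 11 without replicate 2 of DTR+.

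**Figure D4:**
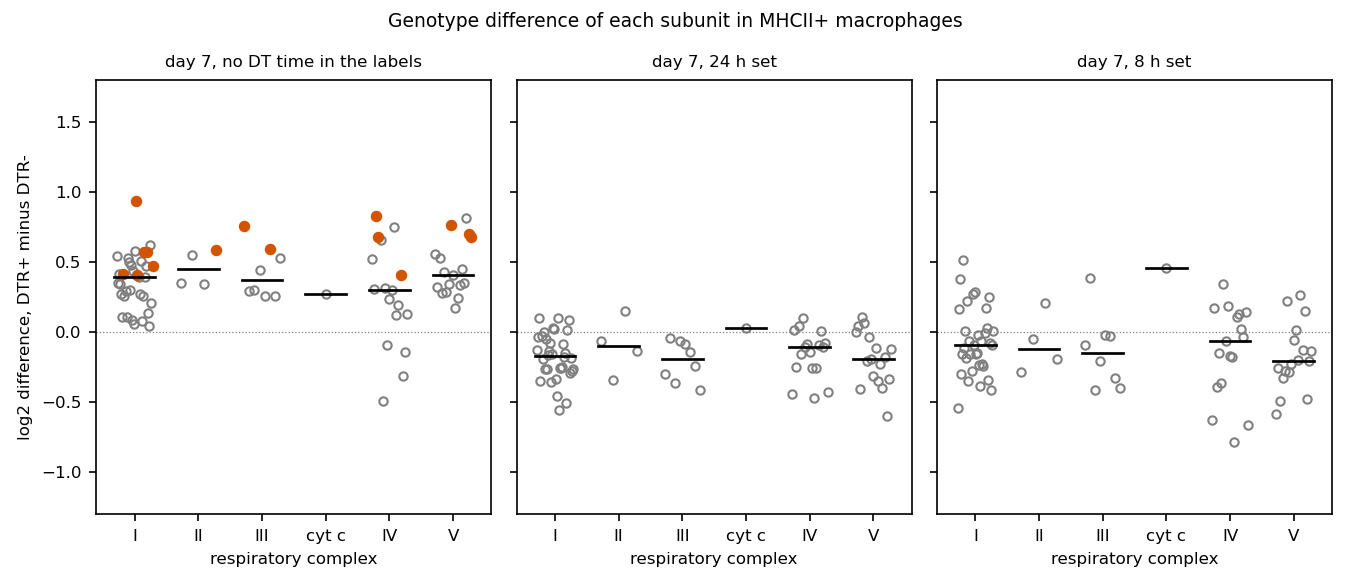
Log2 difference of DTR+ minus DTR- MHCII+ cells on day 7 for each of the 81 subunits (y axis) by respiratory complex (x axis), in the untimed, 24 h and 8 h sets; filled points passed limma's adjusted p under 0.05, open points did not, and the bar is the median. In the untimed set 77 of 81 points lie above 0, in the 24 h set 16, and in the 8 h set 25.

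The genotype difference in the untimed set was tested against that in the other day 7 sets, a contrast added after the values had been seen. It was larger than in the 24 h set for 14 subunits and smaller for none (7.52% of all genes differed in either direction; 45 subunits with an unadjusted p under 0.05), and larger than in the 8 h set for 18 (7.90%; 43 subunits). Both use the same untimed arrays and are not independent. Ndufb6 lay at 0.94 in the untimed set, -0.46 in the 24 h set and -0.15 in the 8 h set. Cox5a lay at 0.83, -0.25 and -0.39, Atp5g3 at 0.76, -0.19 and -0.23, Cox5b at 0.68, 0.04 and -0.15, and Cox8a at 0.40, 0.01 and 0.02. Against the 24 h set, 1 call was left without replicate 1 of either untimed genotype, 6 without replicate 2 of untimed DTR-, 2 and 22 without replicates 5 and 1 of 24 h DTR+, and 9 and 23 without replicates 1 and 4 of 24 h DTR-; Ndufb6 was called in every fit. Against the 8 h set, 18 stayed without replicate 3 or 4 of 8 h DTR+ or replicate 2 of 8 h DTR-, 9 or 10 without another 8 h array, and 3, 10, 4 and 9 without untimed DTR+ replicates 1 and 2 and DTR- replicates 1 and 2. Atp5a1, Cox5a and Cox5b were called in every one of these fits. The untimed mice were 10 weeks old, the 24 h mice 8 and the 8 h mice 12.

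Other lists put the untimed difference in context. Of 15 glycolytic genes, 14 were higher in DTR+ cells with a median of 1.34; Pgk1 was higher by 2.16, Pfkp by 2.00, Pdk1, which restrains pyruvate entry to the TCA cycle, by 1.86 and Aldoc by 1.84. The mean over the glycolytic genes was 11.32 and 11.14 in DTR+ and 9.84 and 9.95 in DTR- cells. Of 16 TCA cycle genes 3 were higher (median 0.34), Mdh2 (0.76), Suclg1 (0.70) and citrate synthase Cs (0.52), and of 36 assembly factors 2, Coa5 (0.67) and Sco1 (0.52). Cyc1, the cytochrome c1 subunit of complex III, which the symbol rule does not take in, was higher by 0.56 (adjusted p = 0.019). Among 16 genes of mitochondrial biogenesis and transcription, Ppargc1b, a coactivator of mitochondrial genes, was higher by 1.61 ± 0.13 (adjusted p = 3.28e-11) and Myc by 0.95; Nrf1 (-0.11), Gabpa (-0.01) and Esrra (0.19) did not pass. Of 11 carriers, uncouplers and antioxidant genes, 5 were higher, led by Acod1, the enzyme that makes itaconate, an inhibitor of complex II, at 3.15 (adjusted p = 5.35e-07), with the outer membrane channel Vdac1 at 0.82 and the mitochondrial superoxide dismutase Sod2 at 0.67.

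In the same comparison 11 of 14 muscle fibre markers were lower in DTR+ cells (median -0.77), their mean over 16 genes being 7.99 and 8.25 against 8.92 and 8.74. Of 8 macrophage markers 2 were lower, Mertk (-0.47) and Adgre1 (-0.35), the macrophage mean being 12.30 and 12.34 against 12.46 and 12.45, and no neutrophil, fibroblast or muscle progenitor marker passed. Of the T cell markers, Cd4 was lower by 2.33 on the log2 scale, and Cd3e was at 0.01 and did not pass (limma adjusted p = 0.995). Cd3d, Cd3g and Cd8a, below the threshold for testing, were at most 7.24 on these 4 arrays. Of 3 endothelial and 2 eosinophil markers, 1 of each was higher. The part of other cells in the difference was not tested. In the 24 h and 8 h sets no gene of any of these lists passed in MHCII+ cells.

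**Figure D5:**
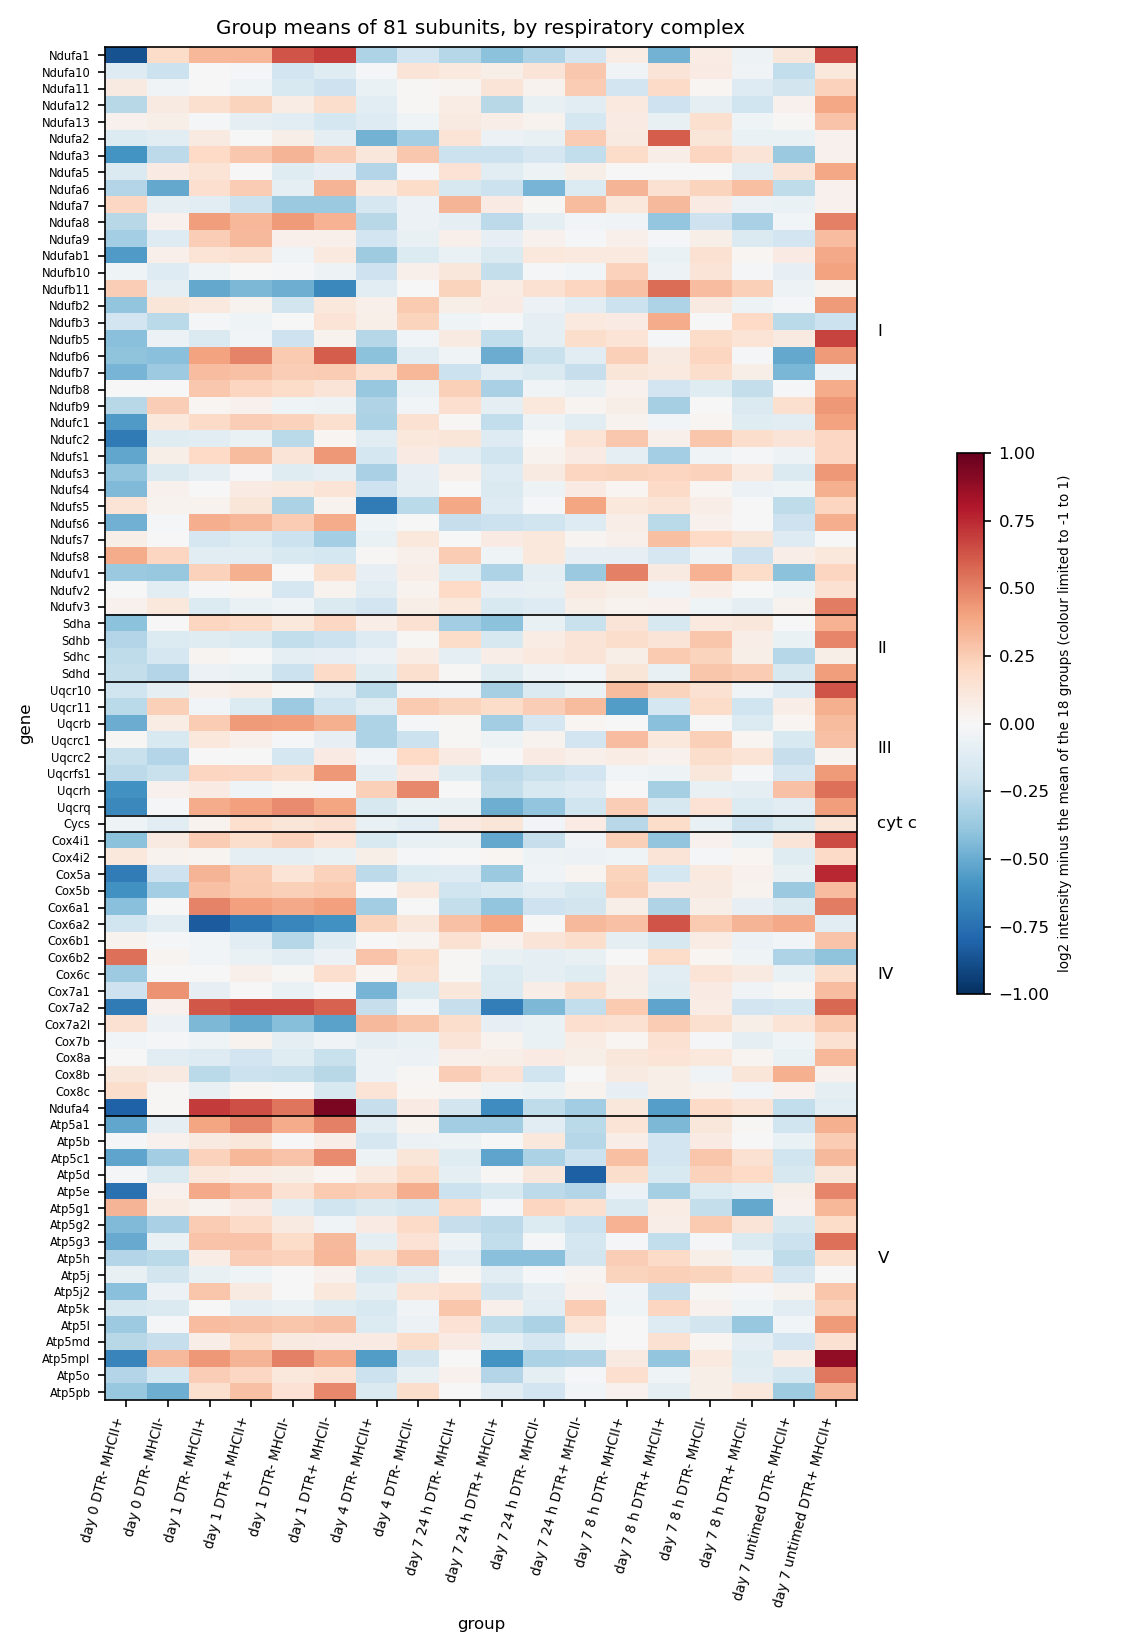
Group mean of log2 intensity minus the mean of the 18 group means (colour) for each of the 81 subunits (rows, by complex) in the 18 groups (columns). Most rows are low in day 0 MHCII+ cells, which hold the lowest mean of 33 subunits, and high in untimed DTR+ cells, which hold the highest of 34; Cox6a2 and Cox7a2l are low in the day 1 groups.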

How the data were processed

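Per the labels, the platform was the Affymetrix Mouse Gene 1.0 ST array; per the submitters' processing notes, probes were summarized with Affymetrix Power Tools and RMA (versions: not given in the sources used here). The authors deposited intensities on a linear scale (9.43 to 24649; array medians 174.7 to 203.7), which were converted to log2 here. Symbols came from GEO's platform annotation: of 24922 probe sets, 21425 had 1 symbol, 1399 several and 2098 were not listed. Per gene, the probe set with the highest mean over all 45 arrays was kept, giving 19752 genes; 11074 had a mean of at least log2 7.57 (190 on the linear scale) in at least 1 group. Of the subunits, 18 had more than 1 probe set, and 22 of the 27 further sets correlated with the kept set across arrays at r above 0.9. The others were sets of Cox7b (0.891), Ndufa11 (0.870), Atp5pb (0.812), Cox7a2l (0.774) and Cycs (0.053). Calls of these genes rest on the kept set. Precision is limited by the number of arrays.

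A linear model in limma 3.58.1 (R 4.3.3) had 1 mean for each of the 18 groups, which left 27 residual degrees of freedom, with variances moderated along an intensity trend and Benjamini-Hochberg adjustment over all genes of a comparison; an adjusted p under 0.05 passed. Groups came from the sample titles. The test was checked on simulated data, with independent normal values, a single SD per gene in all groups and no shift of whole arrays. That check does not cover the unequal spread of the sets or arrays that lie low as a whole. The members, the gene lists and the comparisons were chosen with earlier results of these data known.

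Genes named were up to 3 per complex and direction with the largest change among those that passed without overlap, a set of core subunits and isoforms, and from the other lists the genes of smallest p; arrays and genes outside this rule were chosen after their values were seen. Alternatives were no filter, the mean of all probe sets, arrays centred on their median, only the compared groups in the fit, another day 7 set, a replicate block, and each array left out. Replicate numbers appeared to pair samples only for the subsets of DTR- mice in the 8 h set, where the 3 pairs' deviations correlated at 0.527, 0.480 and 0.583; with the block 1 subunit was called, as without it. Promoters came from RefSeq (GRCm38.p6). Figures were drawn with Python 3.11.15 and matplotlib 3.10.9.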

Additional observations from a re-analysis of the deposited data

Results flagged for a closer look

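The change from day 0 to day 1 differed between the subsets for Ndufc2, by 0.75 on the log2 scale (limma adjusted p = 0.0387), being larger in MHCII+ cells; the call was lost in 7 of 8 fits without 1 array, with centred arrays and without the filter.

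The genotype difference in MHCII+ cells was larger in the untimed than in the 24 h set of day 7 for 14 subunits, and larger than in the 8 h set for 18 subunits, by tests of the difference added after the values had been seen.

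Among 112 sets of 4 arrays and 1 subunit examined for a value far from the others, 2 had one, and chance gives about 1 in 20. Cox8c, known as a testis form of subunit VIII, was 8.11 on replicate 3 of the 24 h DTR- MHCII+ cells and 7.77 to 7.81 on the other 3 arrays; that array also had raised neutrophil markers. Ndufs3 was 10.32 on replicate 5 of the 8 h DTR- MHCII- cells and 10.68 to 10.73 on the other 3.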

How the results depend on the processing

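Counts of subunits called stayed within 1.5 times the reported count in 93 of 116 alternatives other than leaving out an array. Fitting only the compared groups, which leaves few residual degrees of freedom at 2 arrays against 2 and estimates the spread from those arrays, gave 15 for day 4 against day 1 in MHCII+ cells and 37 in MHCII-, 33 for day 1 against day 0 and 18 for day 4 against day 0 in MHCII-, and 0 (MHCII+) and 4 (MHCII-) for the 24 h set against day 4. It gave 3 for the subsets at day 0, 3 at day 1 and 0 at 8 h, 69 for the untimed genotypes, 4 and 1 for the subset differences of the day 1 and day 4 changes, and 4 and 39 for the untimed genotype difference against the 24 h and 8 h sets. Centring arrays on their median gave 2 for day 4 against day 1 and 1 for the 24 h set against day 4 in MHCII-, and 0 for the subset difference at day 1. Without the filter these were 3, 1 and 0, and the difference between untimed and 24 h sets 9. The 8 h set in place of the 24 h set against day 4 gave 6 in MHCII+ (all higher) and 1 in MHCII- (higher, where the 24 h set gave 2 lower); the untimed set gave 3 in MHCII+, all lower, where the 24 h set gave 2 higher and 1 lower. The shares of all genes called under these settings, or with an array left out, were not counted. Whether the moves are particular to the subunits is therefore not known, and their cause was not tested.

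With a replicate block, which the check of the deviations backed only for the 8 h subsets, the counts were 38 for day 1 against day 0 in MHCII+ and 7 in MHCII-, 9 for the subsets at day 0 and 15 for the untimed genotypes; no block moved a count by over 1.5 times.

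Leaving out each array gave, for day 1 against day 0, 12 to 38 in MHCII+ and 3 to 5 in MHCII-; for day 4 against day 1, 1 to 18 and 1 to 2; for day 4 against day 0, 3 to 13 and 2 to 5; and for the 24 h set against day 4, 0 to 9 and 0 to 2. Subset counts ran from 0 to 17 at day 0, 0 to 0 at day 1, 0 to 1 at day 4, 0 to 8 at 24 h and 0 to 1 at 8 h. Genotype counts ran from 2 to 11 in the untimed set, 0 to 4 in 8 h MHCII+ cells, and 0 to 0 in 8 h MHCII- cells, both 24 h subsets and both day 1 subsets. The day 1 subset difference gave 0 to 6 and the day 4 one 0 to 0, and the untimed difference 1 to 23 against 24 h and 3 to 18 against 8 h. A lone array left in a group is assumed to vary like the others.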

Other observations

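The probe set used for Cycs and those of Atp5d and Atp5b moved apart on 2 arrays, chosen after their values were seen. On replicate 3 of the 24 h DTR+ MHCII- cells, Atp5d, the delta subunit of the central stalk, was 10.94, against 13.07 and 13.10 on the other replicates, and the catalytic subunit Atp5b was 12.02, against 12.85 and 12.89. Sdha was 10.03 there, against 10.91 and 10.65. Cycs was higher on this array, at 13.53 against 12.66 and 12.84, as were Sdhc (11.53, against 10.76 and 10.76) and Cox6a2 (9.87, against 9.01 and 9.09).

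Replicate 1 of the 8 h DTR+ MHCII+ cells had the same order, with Atp5d at 12.42 (13.39 and 13.29 on the others), Atp5b at 12.34 (12.85 and 12.84), Atp5a1 at 10.61 (11.28 and 11.03) and Cycs at 13.58 (12.81 and 12.95). On the remaining 43 arrays Cycs lay between 12.42 and 13.14 and Atp5d between 12.77 and 13.48. Both arrays had a lower mean of the macrophage markers than their replicates, at 12.03 against 12.38 and 12.25 in the 8 h group and 12.13 against 12.45 and 12.44 in the 24 h group. The mean of the T cell markers was 9.12 on the 8 h array. On the 24 h array the neutrophil mean was 6.64 (6.10 and 6.14 on the others), the eosinophil mean 7.12 (6.74 and 6.79) and the T cell mean 7.15 (6.94 and 6.92); their part in these values was not tested. A further Cycs probe set, not used here, correlated with the kept set at r = 0.053 across arrays.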
